A study of Mus musculus with 65 samples.

Results

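Of the 15020 gene symbols measured by PRO-seq in MEL cells, 8 genes are described here: Efna3, Ptgr1, Ltk, Cysltr1, Insl6, Cnnm1, Islr2 and Npnt. They were selected on their nascent transcription, which was among the most raised after 30 min or 1 h of the histone deacetylase inhibitor LBH589 (panobinostat). Their values in those 2 comparisons are therefore given as a description, without a test. The question asked of all other comparisons was whether loss of the corepressor Mtg16, or inhibition of the acetyltransferases p300 and CBP, also moved these genes. PRO-seq maps engaged RNA polymerases by a run-on with biotinylated nucleotides, so that reads count polymerases at work and not stored mRNA. MEL is a mouse erythroleukemia line, and the Mtg16-FKBP-2XHA degron fusion, made from the gene Cbfa2t3, was present in all cells of the study, the DMSO controls included. Cells without the tag were not analysed here, and the labels do not say whether the tagged line is 1 clone.

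The 65 samples formed 23 groups in 4 experiments, each normalised on its own. The degrader was 250 nM dTAGV1, which sends FKBP-tagged protein to the proteasome, A485 was given at 10 µM to inhibit p300 and CBP, and LBH589 at 5 nM. The LBH589 series held DMSO, 30 min and 1 h of LBH589, with 3 libraries each. In the A485 series cells got DMSO, the degrader, A485 or both agents for 15 min, 30 min or 1 h. Its groups had 3 libraries, but 2 at 30 min of A485 and 2 at 30 min of both. Libraries with A485 at 30 min and 1 h, alone or with the degrader, carry replicate numbers 1 to 3. All other libraries of that series, DMSO included, carry 4 to 6. A difference between these sets of libraries cannot be told apart from the effect of A485 at 30 min and 1 h. The time course held DMSO and 15 min, 30 min and 1 h of degrader with 3 libraries each, and 2 h of degrader with 2. It also held cells washed after 2 h of degrader, of which 2 libraries at 30 min, 1 at 1 h and 2 at 2 h of washout were used here. In the LBH589 washout series, cells given LBH589 and 2 h of degrader were washed for 30 min or 1 h (3 libraries each), and when LBH589 was added is not labelled. No group was washed without prior degrader, so washing and a return of Mtg16 cannot be told apart.

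Histone deacetylases remove acetyl groups from histone tails and acetyltransferases such as p300 and CBP add them, and acetylated histones are a mark of active promoters and enhancers. Mtg16 is a corepressor that does not bind DNA itself. It is brought to genes by transcription factors, among them the E proteins of the SCL/GATA1 complex in erythroid cells, and it recruits complexes that contain histone deacetylases. The 8 genes have no common role in red cells. Efna3, Insl6 and Npnt encode secreted or surface-bound ligands, Ltk and Cysltr1 encode receptors, Islr2 and Cnnm1 encode other membrane proteins and Ptgr1 encodes an enzyme.

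Recovered reads were summed over all 25857 transcripts, so reads shared by transcripts of a gene count more than once. These sums were 28.15M to 44.8M per library in the LBH589 series (M for mega). They were 7.45M to 62.0M in the A485 series, 16.2M to 62.4M in the time course and 13.5M to 29.1M in the LBH589 washout series. A library held 25 to 284 reads of any 1 of the 8 genes in the LBH589 series, and the range was 5 to 237 for the A485 series, 8 to 211 for the time course and 3 to 306 for the LBH589 washout series. Of the 10 erythroid marker genes looked for, 9 were in the tables and 8 had a mean of at least 10 in DMSO, with a summed level of 18170 to 19040 normalised reads in the LBH589 series. Marker sums of other lineages there were 96.9 to 118 for lymphoid cells, 58.6 to 60.85 for granulocytes and macrophages and 229 to 248 for neurons. In bulk samples such as these, fewer cells of a type and less transcription per cell cannot be told apart. Cbfa2t3, the gene of Mtg16, had 2.18 log2 units more transcription after 1 h of degrader in the A485 series and 2.74 in the time course. Its protein was not measured. In the LBH589 series Cbfa2t3 had 51040 ± 1230 normalised reads in DMSO, 30600 ± 1740 after 30 min and 23410 ± 1408 after 1 h of LBH589. In the A485 series it had 11270 ± 957 in DMSO and 50990 ± 1651 after 1 h of degrader (SD, n = 3 each). The difference between the DMSO groups of these separately normalised experiments was not tested. In the time course, degrader 15 min replicate 2 and degrader 30 min replicate 3 stood apart from their own groups (mean correlation of deviations -0.36 and -0.22), and the titles of the 5 libraries at 1 h and 2 h of degrader disagree with their library names. Cbfa2t3 had 150600 normalised reads in degrader 15 min replicate 2, against 58870 and 48880 in its group, and 153600 to 159400 at 1 h of degrader. It had 165000 in degrader 30 min replicate 3, against 112100 and 108200 in its group, and 157000 to 165600 at 30 min of washout. Whether these 2 libraries carry the right label was not tested. All 8 genes passed the filter of a mean of at least 10 normalised reads in the first 3 experiments, and 7 of them did in the LBH589 washout series, where Cysltr1 did not. Nothing in the labels says that libraries of a group came from separate cultures, so p-values below measure the spread between these libraries, which may be technical.

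In the LBH589 series, 6 of the 8 genes had a level at 1 h above that at 30 min, which in turn lay above DMSO. Efna3, which encodes the ephrin-A3 ligand of Eph receptor kinases, had 51.8, 27.2 and 34.0 normalised reads in DMSO, 53.9, 63.1 and 53.2 after 30 min and 212, 175 and 192 after 1 h of LBH589. Its change of 2.37 ± 0.17 log2 units at 1 h (SE, n = 3 each) ranked 1 of 12553 genes, while its change of 0.62 ± 0.17 at 30 min ranked 241. Most of its increase thus came after the first 30 min, and no library of one time overlapped those of another. Ptgr1, a reductase that inactivates leukotriene B4 and oxidised prostaglandins, followed the same course. It had 55.2, 46.0 and 51.0 normalised reads in DMSO, 64.9, 75.7 and 78.1 after 30 min and 211, 193 and 215 after 1 h. Its change was 0.51 ± 0.13 at 30 min (rank 422) and 2.00 ± 0.13 at 1 h (rank 4, SE, n = 3 each).

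Both receptor genes reached nearly the same change as Ptgr1 at 1 h. Ltk, a receptor tyrosine kinase related to Alk, had 32.7, 34.8 and 36.5 normalised reads in DMSO, 59.4, 74.0 and 53.2 after 30 min and 151, 119.9 and 152 after 1 h. That gave changes of 0.81 ± 0.16 (rank 98) and 1.99 ± 0.16 (rank 5, SE, n = 3 each). Cysltr1, a receptor for cysteinyl leukotrienes, varied little between libraries, with 28.2, 26.3 and 25.5 normalised reads in DMSO, 54.5, 52.1 and 58.5 after 30 min and 106, 104 and 107 after 1 h. Its changes were 1.02 ± 0.16 (rank 33) and 1.95 ± 0.16 (rank 7, SE, n = 3 each), so that 52.3% of its log2 change at 1 h was present at 30 min, against 26.3% for Efna3 and 25.6% for Ptgr1.

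Insl6, an insulin-like peptide of the relaxin family best known from testis, had 54.1, 28.2 and 30.6 normalised reads in DMSO, 63.5, 60.5 and 55.9 after 30 min and 155, 115 and 137 after 1 h. One DMSO library of Insl6, replicate 7, lay well above the other two, and it was also the highest of the 3 for Efna3, Cnnm1, Ptgr1 and Cysltr1. The changes of Insl6 were 0.72 ± 0.18 (rank 155) and 1.87 ± 0.18 (rank 9, SE, n = 3 each). Cnnm1, a member of the CNNM family of membrane proteins linked to magnesium transport, had 55.2, 39.5 and 35.7 normalised reads in DMSO, 62.8, 96.7 and 79.8 after 30 min and 163, 144 and 169 after 1 h. Its changes were 0.86 ± 0.16 (rank 73) and 1.87 ± 0.16 (rank 10, SE, n = 3 each).

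Islr2 and Npnt had another time course, with the highest level at 30 min. Islr2, a leucine-rich repeat and immunoglobulin protein of developing neurons, had 53.0, 68.6 and 67.1 normalised reads in DMSO, 196, 174 and 179 after 30 min and 151, 125 and 159.9 after 1 h. All its LBH589 libraries lay above all DMSO libraries, and the 1 h libraries lay below the 30 min libraries. Its changes were 1.53 ± 0.13 (rank 4) and 1.20 ± 0.13 (rank 124, SE, n = 3 each). Npnt, the extracellular matrix protein nephronectin and a ligand of an integrin, had 58.6, 64.8 and 42.5 normalised reads in DMSO, 137, 134 and 146 after 30 min and 106, 119.9 and 105 after 1 h. Its changes were 1.33 ± 0.14 (rank 12) and 1.00 ± 0.14 (rank 249, SE, n = 3 each), again with no overlap between the 3 groups. Over the 8 genes the median change was 0.84 at 30 min and 1.91 at 1 h, beside -0.01 and -0.00 over all 12553 genes, which describes how the 8 were chosen. The erythroid marker sum was 14120 to 15160 after 30 min and 13170 to 13530 after 1 h of LBH589, below its DMSO range. The lymphoid sum (3 of 5 markers in the table) was 119 to 146 after 30 min and 179 to 199.6 after 1 h. The granulocyte and macrophage sum (2 of 5 markers) was 70.6 to 78.7 after 30 min and 76.3 to 82.8 after 1 h. Both sums lay above their DMSO ranges at both times. The neuronal sum (4 of 5 markers) was 211 to 224 after 30 min, below its DMSO range, and 228.8 to 262 after 1 h, which overlapped it. The part of these markers in the changes of the 8 genes was not tested.

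**Figure D1:**
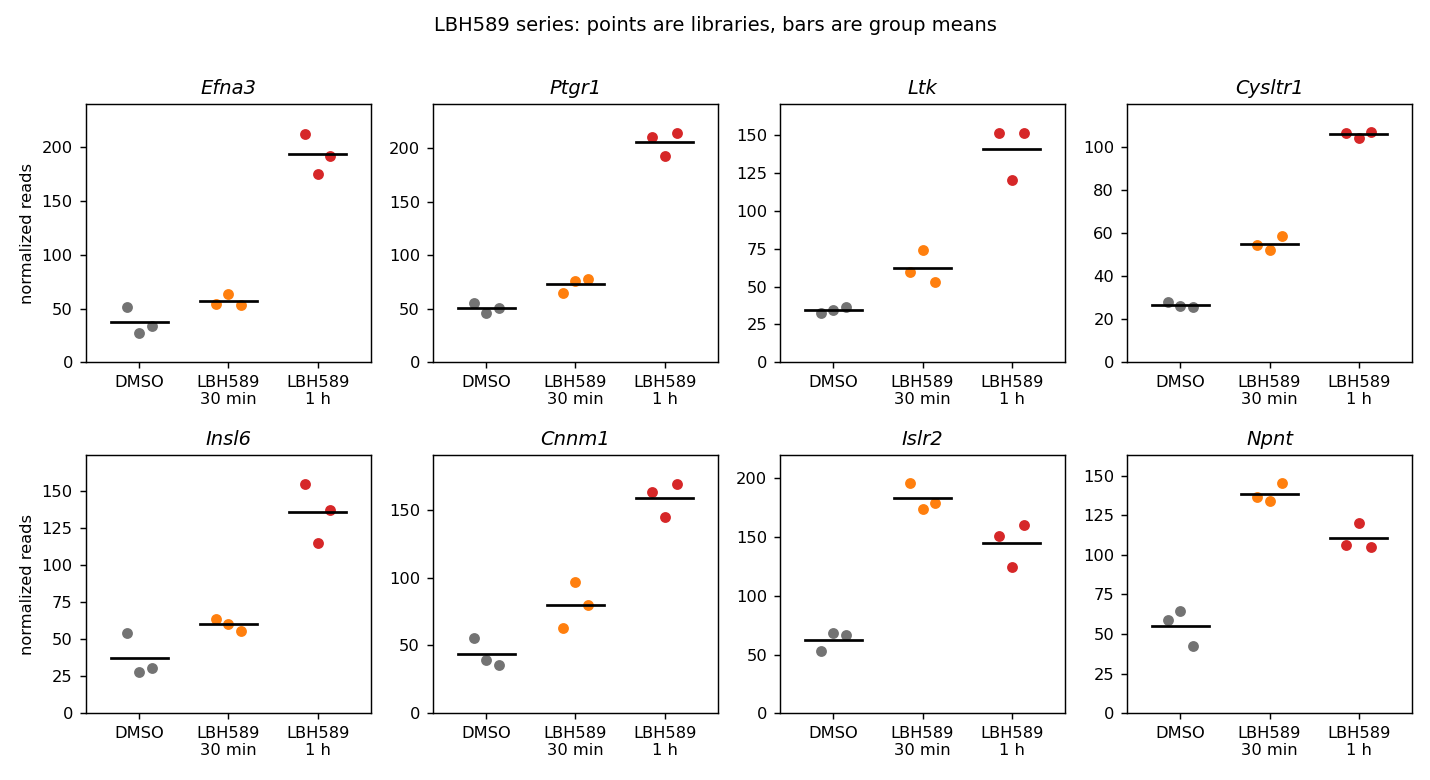
Normalised reads of the 8 genes (vertical axes, starting at 0) in each library of the LBH589 series, for DMSO, 30 min and 1 h of LBH589. Each point is a library and each bar the mean of its group (n = 3 each). Levels climb to 1 h in 6 genes, while Islr2 and Npnt are highest at 30 min, with 174 to 196 and 134 to 145.5 normalised reads.

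The 8 genes were not alone at the top of the LBH589 ranking. At 1 h, 252 genes were 1 or more log2 units above DMSO and 36 genes were at 30 min. Between Efna3 and Ptgr1 at 1 h stood Dubr (2.24, rank 2) and A830036E02Rik (2.19, rank 3), followed further down by Sun3 (1.96, rank 6) and Ankrd29 (1.88, rank 8). Fkbp1b, a calcium channel regulator, was at 316 ± 37.0 normalised reads after 1 h of LBH589 and 86.3 ± 14.3 in DMSO (SD, n = 3 each), the first gene after Cnnm1 at rank 11. Mns1 (1.84), 6430573P05Rik (1.82), Ppm1k (1.79), Mtus1 (1.72) and the transcription factor gene Tbx19 (1.69) came next. At 30 min the calcium channel subunit gene Cacng6 led (1.78, rank 1), before A830036E02Rik (1.75) and Slc6a2, the noradrenaline transporter (1.59, rank 3), with Islr2 directly behind. Ankrd29 (1.49), Dubr (1.43), Sun3 (1.42), 9130230L23Rik (1.40), Adam30 (1.39), Tbx19 (1.37) and Grk1 (1.34, rank 11) stood between Islr2 and Npnt.

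In the LBH589 series all 8 genes started from a low level, in DMSO libraries that also entered the choice of the genes. Per kilobase of gene length, DMSO levels in the LBH589 series ran from 0.747 normalised reads in Cnnm1, 0.807 in Npnt and 0.981 in Cysltr1 over 2.35 in Ptgr1, 3.81 in Ltk and 4.17 in Efna3 to 7.84 in Islr2 and 9.49 in Insl6. These levels lay between percentile 3.25 (Cnnm1) and percentile 21.1 (Insl6) of the 12538 genes with a length. In DMSO of the A485 series the range was percentile 4.5 (Npnt) to 25.1 (Insl6) of 12582 genes. In DMSO of the time course it was 3.25 (Npnt) to 42.2 (Insl6) of 12705 genes, with Ltk at 21.5. Nearest measured genes on the same chromosomes mostly had smaller changes. Of 16 such neighbours, 1 was 1 or more log2 units higher at 1 h of LBH589 and 10 lay above 0. That gene was Efna4, next to Efna3 on chromosome 3 and another ephrin gene, with 44.6 ± 11.04 normalised reads at 1 h of LBH589 and 21.4 ± 5.92 in DMSO (SD, n = 3 each). P2ry10b beside Cysltr1 on chromosome X (0.87) and Itpka beside Ltk on chromosome 2 (0.72) followed, while Jak2 and Plgrkt on either side of Insl6 on chromosome 19 changed by 0.22 and 0.31. Dnajc25 (0.33) and Ecpas (-0.28) flank Ptgr1, Hps1 (-0.46) and Got1 (0.40) flank Cnnm1, Ubl7 (0.06) and Pml (-0.02) flank Islr2, and Gm29811 (0.42) and Gstcd (-0.45) flank Npnt. Slc50a1 (0.30) is the other neighbour of Efna3, Taf9b (-0.47) of Cysltr1 and Rpap1 (-0.47) of Ltk. None of the 16 overlaps its neighbour among the 8 genes in the reference gene table.

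Promoter sequences, each 250 bases before to 50 bases after an annotated start, were read from RefSeq (GRCm38.p6) for 6 of the 8 genes. Cysltr1 and Insl6 are not listed there. Windows were matched by gene symbol and not by the transcript measured. The windows were searched on both strands for CAGCTG and for CAGATG, which reads CATCTG on the other strand. These are 2 forms of the E box that E proteins bind. The GATA core AGATAA, with TTATCT as its other strand, and TATAAA, with TTTATA as its other strand, were searched too. The first listed windows of Ltk, Cnnm1 and Efna3 hold an E box, shown in capitals, and those of Npnt, Ptgr1 and Islr2 hold none, of which that of Npnt is shown. Of the genes with an E box there, Efna3 did not pass at any time of degrader.
Ltk, chr2:119758476-119758775, minus strand: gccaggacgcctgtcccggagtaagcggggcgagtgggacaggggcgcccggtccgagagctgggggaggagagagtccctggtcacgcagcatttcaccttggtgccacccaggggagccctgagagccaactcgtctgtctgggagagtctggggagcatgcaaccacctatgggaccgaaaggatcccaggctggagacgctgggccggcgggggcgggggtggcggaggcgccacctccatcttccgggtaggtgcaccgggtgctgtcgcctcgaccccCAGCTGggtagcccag
Cnnm1, chr19:43440163-43440462, plus strand: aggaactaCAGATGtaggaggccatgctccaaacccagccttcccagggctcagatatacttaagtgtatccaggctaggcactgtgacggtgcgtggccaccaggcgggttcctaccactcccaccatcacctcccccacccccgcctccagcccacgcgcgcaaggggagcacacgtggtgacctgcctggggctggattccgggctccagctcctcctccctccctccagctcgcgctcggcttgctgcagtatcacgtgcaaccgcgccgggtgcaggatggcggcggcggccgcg
Efna3, chr3:89322890-89323189, minus strand: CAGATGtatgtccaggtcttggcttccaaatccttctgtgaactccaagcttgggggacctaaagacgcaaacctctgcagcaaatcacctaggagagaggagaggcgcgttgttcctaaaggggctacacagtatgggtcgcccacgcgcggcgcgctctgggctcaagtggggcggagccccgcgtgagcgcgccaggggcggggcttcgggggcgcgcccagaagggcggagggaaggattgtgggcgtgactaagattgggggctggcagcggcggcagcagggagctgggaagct
Npnt, chr3:132950242-132950541, minus strand: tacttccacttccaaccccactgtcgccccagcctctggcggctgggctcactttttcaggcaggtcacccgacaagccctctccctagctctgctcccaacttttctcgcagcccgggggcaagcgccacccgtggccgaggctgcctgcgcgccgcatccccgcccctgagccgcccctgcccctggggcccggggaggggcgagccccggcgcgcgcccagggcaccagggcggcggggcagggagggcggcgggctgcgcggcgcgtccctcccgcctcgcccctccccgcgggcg

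In these sequences CAGCTG occurs in the window of Ltk, near its 3′ end, and CAGATG in those of Cnnm1 and Efna3, near their 5′ ends. Of the 32851 promoters of the same length, 16.3% hold CAGCTG and 17.2% hold CAGATG, on either strand. Neither AGATAA, held by 11.2% of all promoters, nor TATAAA, held by 13.6%, is in the first listed window of any of the 6 genes. The GC content was 69.3% in Ltk, 66.3% in Cnnm1, 64.0% in Efna3, 76.7% in Npnt, 54.0% in Islr2 and 47.0% in Ptgr1, beside a median of 52.7% over all promoters.

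The main question was whether removal of Mtg16 moved the same genes. In the A485 series, Ltk rose with the degrader at all 3 times and no other gene of the 8 did. Ltk had 55.1, 53.6 and 52.8 normalised reads in DMSO, 96.2, 109 and 92.8 after 15 min, 100.1, 88.2 and 90.8 after 30 min and 106, 94.3 and 124 after 1 h of degrader. Every degrader library lay above every DMSO library. Its rise was 0.87 ± 0.15 log2 units at 15 min, 0.78 ± 0.15 at 30 min and 0.98 ± 0.15 at 1 h (SE, n = 3 each, limma adjusted p = 6.78e-05, 0.000257 and 5.57e-06), and it passed with each library left out in turn. The summed level of the neuronal markers, of which 4 of 5 were in the table, was 337 to 392 normalised reads after 1 h of degrader and 158 to 187 in DMSO. The erythroid sum was 19890 to 20210 after 1 h of degrader and 13130 to 13450 in DMSO, and the lymphoid sum was 191 to 202 after 1 h of degrader and 122.5 to 133.5 in DMSO. Their part in the rise of Ltk was not tested.

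Cnnm1 rose with the degrader at 1 h in that series. It had 56.9, 66.2 and 53.8 normalised reads in DMSO, 80.6, 82.8 and 78.7 after 15 min, 93.6, 86.5 and 59.96 after 30 min and 85.3, 113 and 77.1 after 1 h of degrader. The change was 0.45 ± 0.19 at 15 min and 0.41 ± 0.19 at 30 min, which did not pass, and 0.62 ± 0.19 at 1 h (SE, n = 3 each, limma adjusted p = 0.109, 0.128 and 0.0155). The call at 1 h was lost without DMSO replicate 4 (change 0.60), DMSO replicate 6 (0.56) or degrader 1 h replicate 5 (0.46). At 30 min, Cnnm1 passed without degrader 30 min replicate 6 (0.61).

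Npnt moved the other way. It had 57.8, 53.6 and 65.7 normalised reads in DMSO, 32.5, 17.3 and 24.1 after 15 min, 32.5, 32.1 and 41.8 after 30 min and 62.9, 44.9 and 52.8 after 1 h of degrader. At 15 min and 30 min all degrader libraries lay below all DMSO libraries, and at 1 h the groups overlapped. It fell at 15 min, with a change of -1.27 ± 0.24, and at 30 min, with -0.72 ± 0.24, and the change at 1 h was -0.15 ± 0.24 (SE, n = 3 each, limma adjusted p = 0.000235, 0.0301 and 0.708). At 30 min the call was lost without DMSO replicate 4 (-0.74), DMSO replicate 6 (-0.65), degrader 30 min replicate 4 (-0.67) or degrader 30 min replicate 5 (-0.66). Islr2, the other gene that peaked at 30 min of LBH589, had 34.3, 37.6 and 34.9 normalised reads in DMSO, 34.9, 15.4 and 21.5 after 15 min, 28.0, 19.5 and 18.2 after 30 min and 30.9, 33.7 and 32.0 after 1 h of degrader. Its changes of -0.63 ± 0.34, -0.70 ± 0.34 and -0.14 ± 0.34 did not pass (SE, n = 3 each, limma adjusted p = 0.224, 0.144 and 0.803).

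The other 4 genes did not pass at any time of degrader in the A485 series. Efna3 had 39.5, 56.1 and 43.8 normalised reads after 1 h of degrader and 55.1, 46.8 and 47.8 in DMSO, a change of -0.11 ± 0.19. Ptgr1 had 64.0, 96.6 and 84.1 after 1 h of degrader and 80.4, 95.8 and 79.7 in DMSO (-0.08 ± 0.19), and Cysltr1 had 35.2, 50.5 and 46.5 after 1 h of degrader and 38.9, 35.4 and 46.8 in DMSO (0.12 ± 0.32). In these genes the groups overlapped. Insl6 had 43.7, 50.5 and 79.2 after 1 h of degrader and 43.4, 41.1 and 43.8 in DMSO (0.38 ± 0.19, SE, n = 3 each, limma adjusted p = 0.134), and it passed without degrader 1 h replicate 4 (0.555).

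Counted over the 8 genes, 1 was called higher and 1 lower at 15 min, where 10.9% of all 12597 genes tested were called higher and 5.8% lower. At 30 min 1 was higher and 1 lower, beside 11.3% and 9.23% of all genes. At 1 h 2 were higher, beside 14.7% higher and 10.9% lower among all genes. The median change of the 8 genes was 0.20 at 15 min, -0.01 at 30 min and 0.02 at 1 h, where that of all genes was -0.00, 0.00 and -0.00. The shares called among these genes are thus near those of all genes, and the 8 genes did not move as one under the degrader.

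In the time course the same genes gave another picture. No gene of the 8 was called by limma or by edgeR at 15 min, 1 h or 2 h of degrader (at an unadjusted p under 0.05, limma had 2, 1 and 0), where 5.89%, 8.13% and 6.77% of the 12720 genes tested were called higher and 1.04%, 3.15% and 2.63% lower. At 30 min Islr2 and Npnt were called higher, beside 8.69% of all genes higher and 5.17% lower. Islr2 had 14.9, 18.2 and 30.2 normalised reads in DMSO, 31.5, 34.6 and 36.1 after 15 min, 37.8, 35.5 and 152 after 30 min, 31.8, 42.6 and 38.1 after 1 h and 32.0 and 21.4 after 2 h of degrader. Degrader 30 min replicate 3, one of the libraries that stood apart, held several times the level of the other two. The change at 30 min was 1.503 ± 0.42 (SE, n = 3 each, limma adjusted p = 0.0251) and 0.83 without that library, which ended the call. The call was also lost without DMSO replicate 1 (1.295) or 2 (1.43). Without both libraries that stood apart the change of 0.83 passed, with a limma adjusted p of 0.0414.

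Npnt had 40.9, 56.3 and 19.2 normalised reads in DMSO, 72.5, 67.2 and 50.5 after 15 min, 66.9, 61.0 and 99.2 after 30 min, 55.6, 52.3 and 61.6 after 1 h and 50.0 and 51.4 after 2 h of degrader. Its change at 30 min was 1.04 ± 0.29 (SE, n = 3 each, limma adjusted p = 0.0274), and the call was lost without degrader 30 min replicate 3 (0.83) or DMSO replicate 3 (0.615). Without both libraries that stood apart it passed (0.83, limma adjusted p = 0.0484), and without the 5 libraries of conflicting labels neither Islr2 nor Npnt did (limma adjusted p = 0.0656 and 0.0754). At 15 min and 1 h it passed without DMSO replicate 2 (1.13 and 0.98). The sign of both genes was thus opposite to that in the A485 series at 15 min and 30 min, where Npnt fell. All values at 1 h and 2 h of degrader in the time course rest on the 5 libraries of conflicting labels. Without both libraries that stood apart, Islr2 passed at 1 h (0.85) and Ptgr1 and Cysltr1 passed as lower at 2 h (-0.67 and -0.655). The experiments were normalised separately and the difference between them was not tested.

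Ltk, the gene with the most regular rise in the A485 series, had 100.4, 103 and 113 normalised reads in DMSO, 148, 112 and 168 after 15 min, 117, 129 and 97.2 after 30 min, 120.2, 103 and 134 after 1 h and 147 and 126 after 2 h of degrader in the time course. Its changes of 0.42 ± 0.17, 0.11 ± 0.17, 0.17 ± 0.17 and 0.37 ± 0.18 did not pass (SE, n = 3, 3, 3 and 2 treated and 3 DMSO libraries, limma adjusted p = 0.182, 0.69, 0.631 and 0.269). At 15 min it passed without degrader 15 min replicate 2, the other library that stood apart (0.58). Cnnm1 was at 0.38 ± 0.23 after 1 h and Insl6 at -0.14 ± 0.25. Efna3 lay below its DMSO level at all 4 times (-0.31, -0.71, -0.31 and -0.48), and so did Ptgr1 (-0.32, -0.74, -0.33 and -0.67) and Cysltr1 (-0.20, -0.23, -0.07 and -0.66), with no call. Without the 2 libraries that stood apart, Cysltr1 lay above DMSO at 15 min (0.105) and 30 min (0.17), again with no call. Efna3 (-0.09 and -0.59) and Ptgr1 (-0.07 and -0.33) stayed below DMSO at these times. At 30 min Ptgr1 passed without degrader 30 min replicate 2 (-1.107).

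**Figure D2:**
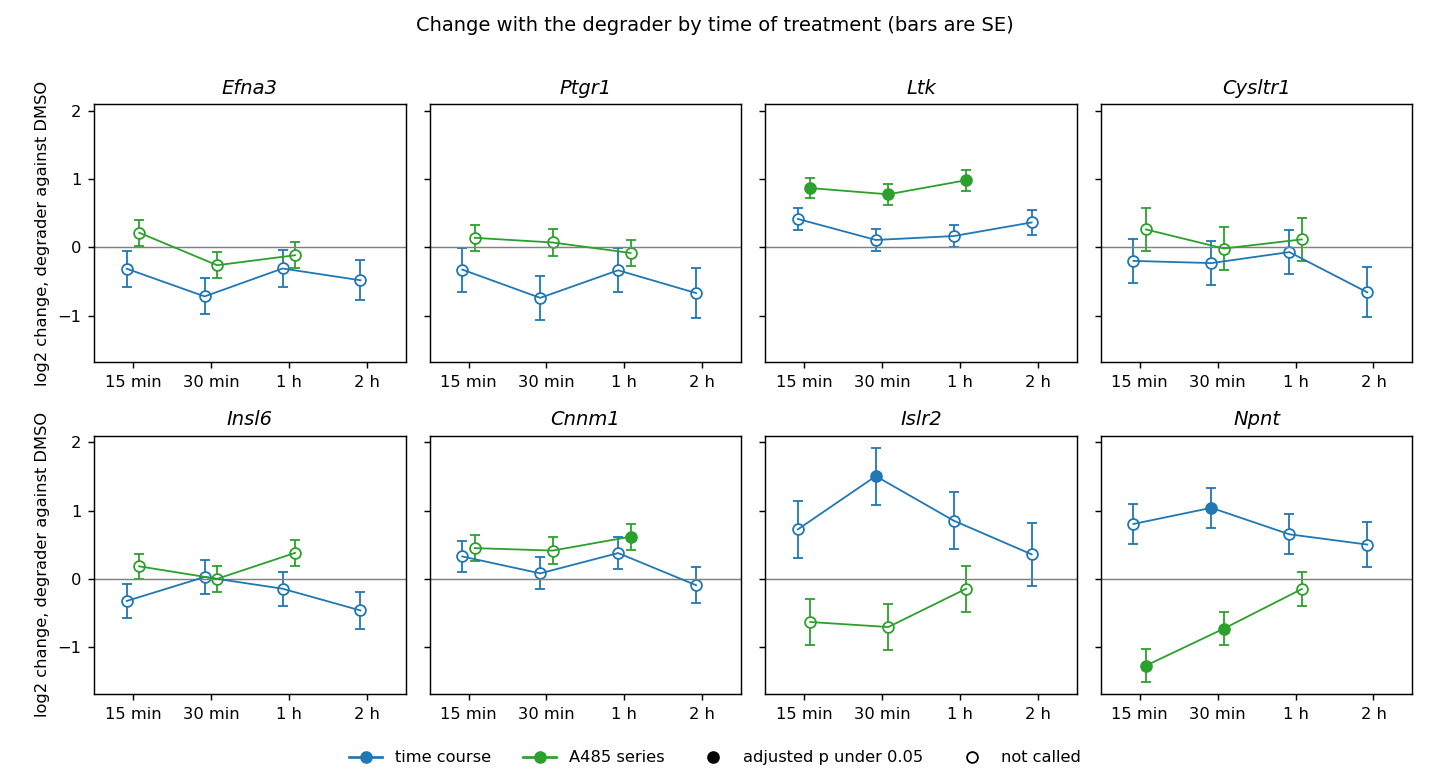
Log2 change with the degrader against DMSO (vertical axes) by time of treatment for the 8 genes, in the time course (blue) and the A485 series (green). Points are limma estimates, bars their SE, and filled points have an adjusted p under 0.05. Ltk lies above 0 at all 3 times in the A485 series (0.87, 0.78 and 0.98), while Islr2 and Npnt lie on opposite sides of 0 in the experiments.

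The A485 groups addressed what these genes do when acetylation by p300 and CBP is blocked. Of the 8 genes, 4 rose and 3 fell after 1 h, where 29.4% of all 12597 genes were called higher and 33.2% lower. Efna3 had 55.1, 46.8 and 47.8 normalised reads in DMSO, 92.3, 86.0 and 72.9 after 15 min, 77.8 and 94.0 after 30 min and 118, 99.2 and 80.0 after 1 h of A485. All A485 libraries were above all DMSO libraries, with rises of 0.73 ± 0.19, 0.77 ± 0.21 and 0.96 ± 0.19 (SE, n = 3, 2 and 3 treated and 3 DMSO libraries, limma adjusted p = 0.0013, 0.00213 and 4.17e-05). Ltk also rose at each time, with 55.1, 53.6 and 52.8 normalised reads in DMSO, 93.9, 78.4 and 101 after 15 min, 93.2 and 109 after 30 min and 126, 132 and 136 after 1 h. Its rise of 1.27 ± 0.15 at 1 h had a limma adjusted p of 6.64e-09 (SE, n = 3 each), and it was 0.74 at 15 min and 0.89 at 30 min.

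Insl6 and Cnnm1 rose later. Insl6 had 43.4, 41.1 and 43.8 normalised reads in DMSO, 54.2, 51.5 and 48.1 after 15 min, 75.3 and 97.0 after 30 min and 97.6, 96.3 and 90.8 after 1 h of A485. The change of 0.26 ± 0.19 at 15 min did not pass, and the rises at 30 min and 1 h were 0.98 ± 0.21 and 1.13 ± 0.19 (SE, n = 3, 2 and 3 treated and 3 DMSO libraries, limma adjusted p = 0.252, 0.000137 and 2.93e-06). Cnnm1 had 56.9, 66.2 and 53.8 in DMSO, 72.8, 78.0 and 69.8 after 15 min, 86.8 and 94.0 after 30 min and 68.9, 99.2 and 96.3 after 1 h. Its rises of 0.61 ± 0.21 at 30 min and 0.56 ± 0.19 at 1 h (SE, n = 2 and 3 treated and 3 DMSO libraries, limma adjusted p = 0.0148 and 0.0118) were lost without replicate 2 of A485 at the same time (0.555 and 0.465).

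Cysltr1, Npnt and Islr2 fell. Cysltr1 had 38.9, 35.4 and 46.8 normalised reads in DMSO, 20.2, 18.5 and 19.4 after 15 min, 11.49 and 19.7 after 30 min and 20.1, 10.1 and 25.4 after 1 h of A485. Its changes were -1.01 ± 0.32, -1.35 ± 0.36 and -1.16 ± 0.32 (SE, n = 3, 2 and 3 treated and 3 DMSO libraries, limma adjusted p = 0.00769, 0.00157 and 0.00201), and the call at 30 min was lost without A485 30 min replicate 1 (-0.99). Npnt had 57.8, 53.6 and 65.7 in DMSO, 20.2, 17.8 and 15.5 after 15 min, 25.5 and 18.2 after 30 min and 28.7, 35.9 and 32.7 after 1 h. It fell most at 15 min (-1.68 ± 0.24) and least at 1 h (-0.84 ± 0.24), with a limma adjusted p of 4.79e-07 and 0.00299 (SE, n = 3 each), and its change at 30 min was -1.41.

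Islr2 had 34.3, 37.6 and 34.9 normalised reads in DMSO, 12.9, 25.4 and 20.1 after 15 min, 20.4 and 18.2 after 30 min and 25.8, 17.2 and 9.09 after 1 h of A485. Its changes were -0.88 ± 0.34, -0.85 ± 0.38 and -1.10 ± 0.34 (SE, n = 3, 2 and 3 treated and 3 DMSO libraries, limma adjusted p = 0.0263, 0.0526 and 0.00513), of which the one at 30 min did not pass in limma and did in edgeR. The call at 15 min was lost without A485 15 min replicate 4 (-0.63), DMSO replicate 5 (-0.845) or DMSO replicate 6 (-0.90), and that at 1 h without A485 1 h replicate 3 (-0.73). Ptgr1 had 80.4, 95.8 and 79.7 in DMSO, 54.2, 64.6 and 51.9 after 15 min, 49.8 and 50.0 after 30 min and 68.9, 93.4 and 50.9 after 1 h. It fell by 0.58 at 15 min and by 0.76 at 30 min, and its change of -0.30 ± 0.19 at 1 h did not pass (SE, n = 3 each, limma adjusted p = 0.182). The call at 15 min was lost without DMSO replicate 5 (-0.491), and at 1 h Ptgr1 passed without A485 1 h replicate 2 (-0.51).

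At the earlier times the background of A485 was as broad. At 15 min 2 of the 8 were higher and 4 lower, beside 25.8% higher and 29.3% lower among all genes. At 30 min 4 were higher and 3 lower, beside 27.1% and 31%. The summed level of the erythroid markers was 2883 to 3180 normalised reads after 1 h of A485 and 13130 to 13450 in DMSO, with Hbb-bs at 0 in A485. The lymphoid sum was 178 to 229 after 1 h of A485 and 122.5 to 133.5 in DMSO, and the granulocyte and macrophage sum was 71.8 to 96.3 after 1 h of A485 and 40.7 to 65.7 in DMSO. Their part in the changes of these genes was not tested.

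When the degrader was added to A485, no gene of the 8 was called against A485 alone at 15 min, 30 min or 1 h, by limma or by edgeR (1, 0 and 1 at an unadjusted p under 0.05). Of all genes, 0.857%, 1.31% and 4.56% were higher and 0.0238%, 0.5% and 2.34% lower at these times. Ltk had 142, 142 and 123 normalised reads after 1 h of both agents and 126, 132 and 136 after 1 h of A485, a difference of 0.04 ± 0.15 (SE, n = 3 each). That difference was below its rise of 0.98 with the degrader alone, as tested by the interaction of the agents at 1 h (-0.94 ± 0.21, SE, n = 3 each, limma adjusted p = 0.00296). The interaction passed with each library of the 4 groups left out in turn. It was called for no other gene of the 8, beside 4.99% of all genes higher and 6.54% lower. Cnnm1 (-0.55 ± 0.27) and Insl6 (-0.55 ± 0.26) had interactions of the same sign that did not pass (SE, n = 3 each, limma adjusted p = 0.199 and 0.186). Npnt had one of the opposite sign that was larger than these but did not pass either (0.89 ± 0.34, SE, n = 3 each, limma adjusted p = 0.0905).

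Of the 8 genes, Npnt had the largest difference between both agents and A485 at 1 h. It had 67.1, 48.6 and 49.9 normalised reads after 1 h of both agents and 28.7, 35.9 and 32.7 after 1 h of A485, groups that did not overlap. The difference of 0.74 ± 0.24 fell just short of the threshold (SE, n = 3 each, limma adjusted p = 0.0598). With a pseudocount of 5 in place of 1 it passed (0.68).

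**Figure D3:**
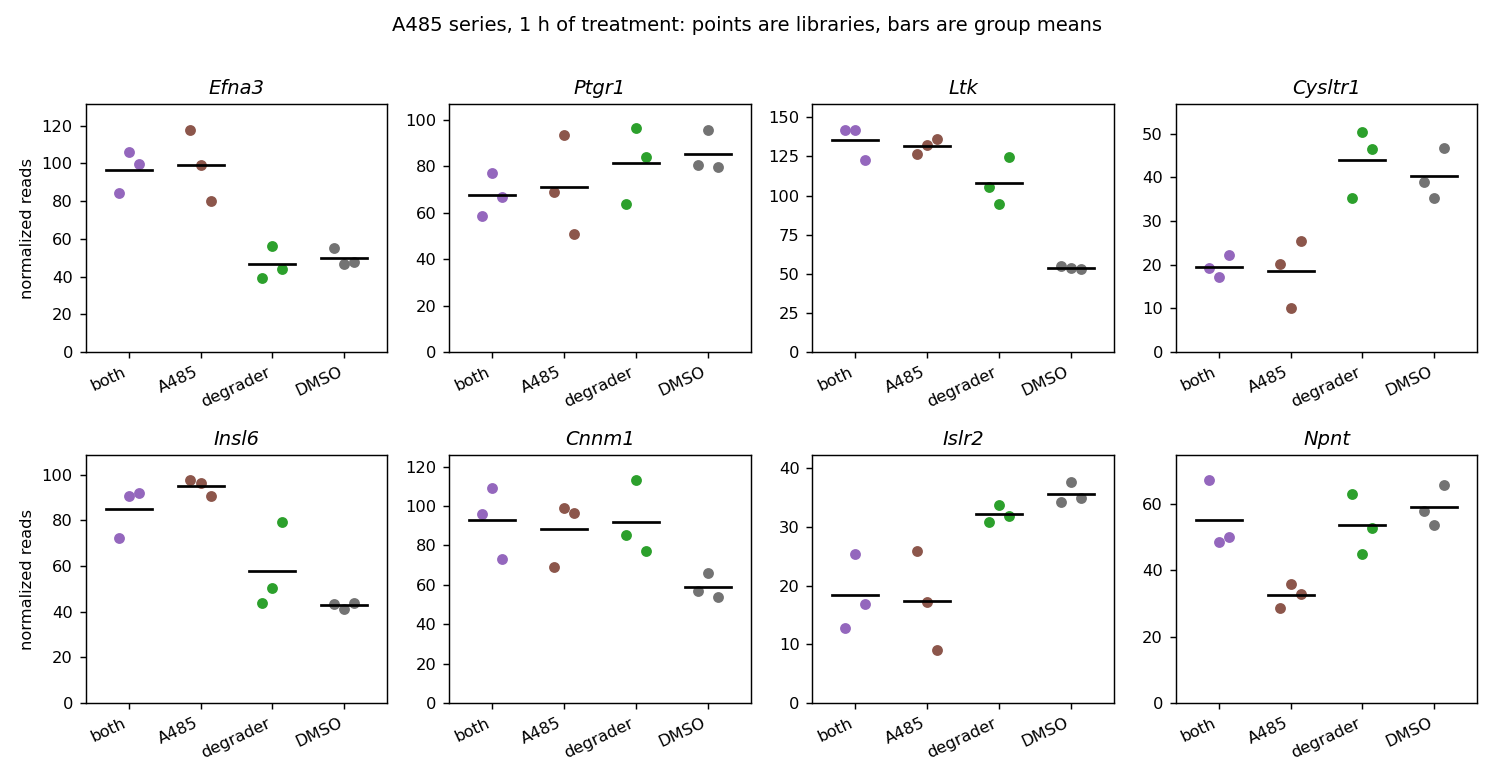
Normalised reads of the 8 genes (vertical axes, starting at 0) in the libraries treated for 1 h with both agents, A485 or the degrader, and in DMSO. Points are libraries and bars group means (n = 3 each). Ltk in both agents (123 to 142) overlaps A485 (126 to 136) and lies above DMSO (52.8 to 55.1), while Cysltr1 in both agents (17.2 to 22.3) lies below DMSO (35.4 to 46.8).

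Washout was compared with 2 h of degrader, 2 libraries against 2. The libraries at 2 h of degrader are among those of conflicting labels. Islr2 had 32.0 and 21.4 normalised reads after 2 h of degrader, 144 and 114 after 30 min of washout, 57.0 in the 1 library at 1 h and 22.2 and 18.0 at 2 h. Npnt had 50.0 and 51.4 after 2 h of degrader, 109 and 114 at 30 min, 128 at 1 h and 47.7 and 44.2 at 2 h of washout. Both genes were thus high early in the washout and near their earlier level at 2 h. At 30 min of washout, a comparison chosen after seeing the data, Islr2 was 2.24 ± 0.51 and Npnt 1.12 ± 0.36 higher (SE, n = 2 each, limma adjusted p = 0.0146 and 0.0351). Ltk was lower, with 81.8 and 74.9 normalised reads after 30 min of washout and 147 and 126 after 2 h of degrader (-0.79 ± 0.20, SE, n = 2 each, limma adjusted p = 0.0175). Among all genes 10.5% were called higher and 13.8% lower. Each of these 3 calls was lost when any 1 of the 4 libraries was left out, with changes of 1.965 to 2.52 for Islr2, 1.09 to 1.15 for Npnt and -0.90 to -0.68 for Ltk. Without the libraries that stood apart all 3 passed, with Ptgr1 (-0.895) and Insl6 (0.62) beside them.

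After 2 h of washout, Ltk was the 1 gene of the 8 called against 2 h of degrader, with 85.0 and 83.5 normalised reads after washout and 147 and 126 after degrader (-0.68 ± 0.20, SE, n = 2 each, limma adjusted p = 0.0302). Its call was lost without any 1 of the 4 libraries (-0.79 to -0.57), and 8.98% of all genes were called higher and 8.3% lower. Cysltr1 had 32.0 and 38.5 normalised reads after 2 h of washout, 73.7 and 79.7 after 2 h of degrader and 121, 103 and 143 in DMSO. Against 2 h of degrader its change of -1.10 ± 0.40 was larger than that of Ltk but did not pass (SE, n = 2 each, limma adjusted p = 0.0675), although the groups did not overlap. Without the 2 libraries that stood apart it passed (limma adjusted p = 0.00114). Its change against DMSO at 2 h of washout was -1.76 ± 0.36 (SE, n = 2 treated and 3 DMSO libraries, limma adjusted p = 0.00164), a call kept with each library left out. Efna3 (-0.84 ± 0.29) and Ptgr1 (-0.96 ± 0.36) were also below DMSO (SE, n = 2 treated and 3 DMSO libraries, limma adjusted p = 0.0346 and 0.0456). Efna3 lost its call without DMSO replicate 1 (-0.87), DMSO replicate 3 (-0.69) or one of the washout libraries (-0.41), and Ptgr1 without any 1 of the 5 libraries (-1.06 to -0.82). Insl6, with -0.70 ± 0.28, passed without DMSO replicate 3 (-0.89) or without the libraries that stood apart (limma adjusted p = 0.0082). Without the 5 libraries of conflicting labels Cysltr1 passed (limma adjusted p = 0.00605) and Efna3 and Ptgr1 did not (limma adjusted p = 0.0694 and 0.0886). Of the 8 genes 3 were thus lower than DMSO, where 21% of all genes were higher and 17.5% lower.

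**Figure D4:**
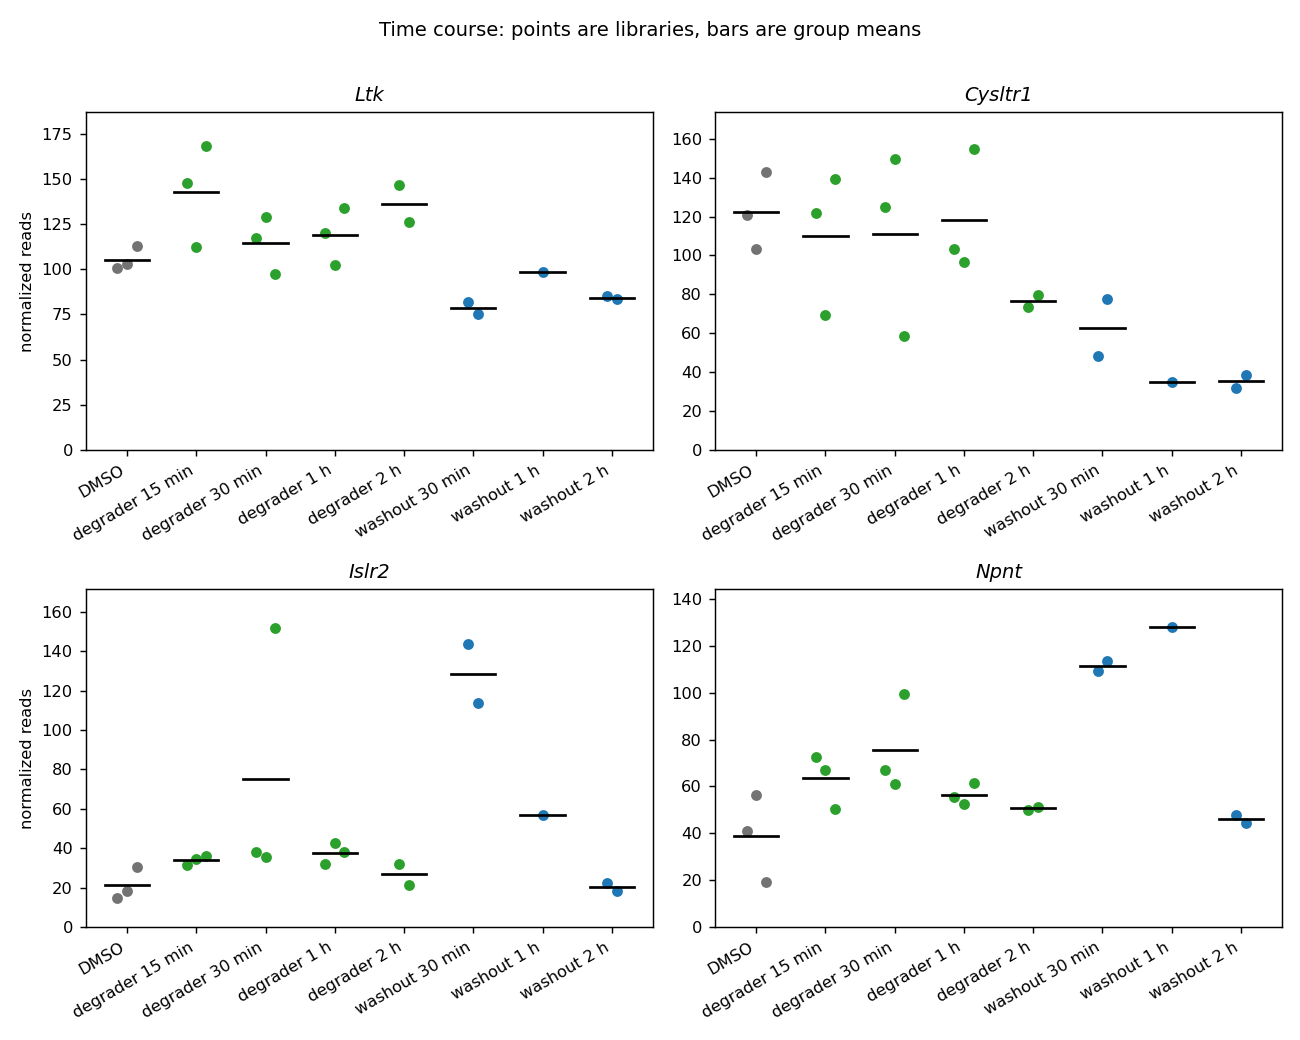
Normalised reads of Ltk, Cysltr1, Islr2 and Npnt (vertical axes, starting at 0) in the time course, from DMSO over 15 min to 2 h of degrader to 30 min to 2 h of washout. Points are libraries and bars group means (n = 1 to 3). Islr2 is high in both libraries at 30 min of washout (144 and 114) and in degrader 30 min replicate 3 (152), and Cysltr1 is lowest at 1 h and 2 h of washout (32.0 to 38.5).

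The LBH589 washout series, whose libraries had no part in the choice of the genes, compared 2 times of washout. All cells there had 2 h of degrader, LBH589 and washout, and the series holds no DMSO group and no group without LBH589. The changes below are therefore changes with washout time, in which an effect of LBH589 cannot be told apart. All 7 genes tested had a higher mean after 1 h than after 30 min of washout, with a median change of 0.99 beside -0.00 over all 12342 genes, and 3 of the 7 were called higher, beside 13.2% of all genes higher and 10.1% lower. The mean correlation with the own group was 0.24, 0.205 and 0.04 for 1 h replicates 1 to 3, and 0.445 to 0.49 at 30 min. Replicate 3 was the highest at 1 h for Ltk, Insl6, Efna3, Cnnm1 and Ptgr1 and the lowest for Islr2, Npnt and Cysltr1. Npnt had 81.5, 80.6 and 77.5 normalised reads at 1 h and 37.8, 33.4 and 30.3 at 30 min of washout. Its rise of 1.22 ± 0.21 (SE, n = 3 each, limma adjusted p = 0.00488) passed with each library left out. Ltk had 61.0, 50.2 and 98.7 at 1 h and 33.5, 27.2 and 27.3 at 30 min, with a rise of 1.17 ± 0.28 (SE, n = 3 each, limma adjusted p = 0.0172). The call of Ltk was lost without replicate 2 or 3 of the 30 min group (1.13 either way).

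Cnnm1 had 79.2, 56.1 and 95.2 normalised reads at 1 h and 47.5, 38.4 and 46.5 at 30 min of washout, and its rise of 0.76 ± 0.25 was near the threshold (SE, n = 3 each, limma adjusted p = 0.0491). It was lost without any library but 1 h replicate 2 (0.59 to 0.815). Islr2 had 174, 199.8 and 114 at 1 h and 118, 106 and 74.8 at 30 min, groups that overlapped, and its change of 0.69 ± 0.24 did not pass (SE, n = 3 each, limma adjusted p = 0.066) but passed without 1 h replicate 3 (0.92). Insl6 had 30.2, 22.2 and 56.4 at 1 h and 9.71, 14.8 and 24.3 at 30 min (1.09 ± 0.43), and passed without 1 h replicate 2 (1.38). Efna3 had 29.6, 28.1 and 55.2 at 1 h and 20.5, 19.8 and 24.3 at 30 min (0.71 ± 0.32), and Ptgr1 had 37.6, 42.1 and 55.2 at 1 h and 31.3, 11.1 and 29.3 at 30 min (0.99 ± 0.39), neither of which passed (SE, n = 3 each, limma adjusted p = 0.13 and 0.0891). Cysltr1, too low to be tested, had 9.69, 14.0 and 8.22 at 1 h and 3.24, 7.43 and 5.06 at 30 min of washout.

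**Figure D5:**
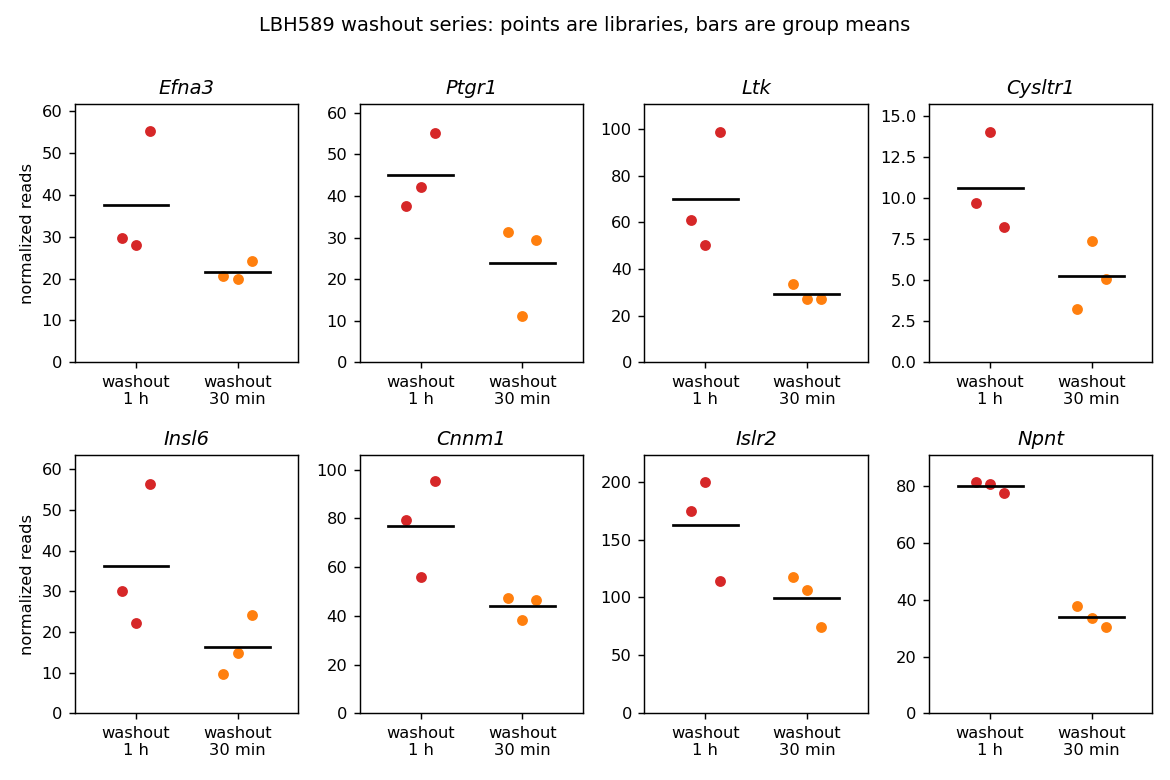
Normalised reads of the 8 genes (vertical axes, starting at 0) in the LBH589 washout series, at 1 h and 30 min of washout. Points are libraries and bars group means (n = 3 each). Npnt separates most clearly, with 77.5 to 81.5 at 1 h and 30.3 to 37.8 at 30 min.

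Relatives and pathway partners of the 8 genes, taken from lists, had calls in both directions in some lists and in 1 direction in others. Of all genes in the A485 series, 14.7% were called higher and 10.9% lower after 1 h of degrader. After 1 h of A485 29.4% were higher and 33.2% lower. Of 19 tested genes of the eicosanoid pathway around Cysltr1 and Ptgr1 (32 listed), 3 rose, 2 fell and 14 did not pass after 1 h of degrader in the A485 series, with a median of 0.08, and 1 rose, 12 fell and 6 did not pass after 1 h of A485, with a median of -0.28. Tbxas1, the thromboxane synthase, had 2030 ± 103.5 normalised reads after 1 h of degrader and 1308 ± 11.7 in DMSO, and Ptgs1, a cyclooxygenase, had 409 ± 21.8 after 1 h of degrader and 763 ± 48.1 in DMSO (SD, n = 3 each). Alox5, the lipoxygenase that starts leukotriene synthesis, fell to 106 ± 25 with 1 h of A485, against 966 ± 29.4 in DMSO (SD, n = 3 each). After 1 h of LBH589 the list had a median of 0.14, and the leukotriene B4 receptor gene Ltb4r1 (1.20) and the prostaglandin E2 receptor gene Ptger4 (1.10) were above DMSO by over 1 log2 unit.

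Of 12 tested ephrin and Eph receptor genes (21 listed), 4 rose and 8 did not pass after 1 h of degrader, with a median of 0.05. The receptor genes Epha8 (119 ± 20.8 against 41.7 ± 6.515 in DMSO) and Ephb3 (81.5 ± 14.8 against 28.95 ± 4.29 in DMSO) rose most (SD, n = 3 each). With 1 h of A485, 4 rose, 3 fell and 5 did not pass, with a median of 0.14. Of 6 genes of the CNNM family and its PRL phosphatase partners, 2 rose, 1 fell and 3 did not pass after 1 h of degrader (median 0.02), and 1 rose, 4 fell and 1 did not pass with A485 (median -0.41). Cnnm2 had 6680 ± 98.2 normalised reads after 1 h of degrader, 1072 ± 63.3 after 1 h of A485 and 4303 ± 38.6 in DMSO (SD, n = 3 each). Over all genes the median was -0.00 with the degrader and 0.00 with A485.

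The remaining lists were small after the filter. Rxfp2, a relaxin family receptor, was the 1 gene tested of 8 in the list around Insl6 and rose with the degrader (54.7 ± 8.69 against 28.9 ± 1.96 in DMSO, SD, n = 3 each). Of the genes around Islr2, 2 of 7 were tested, and with 1 h of A485 Ret fell (26.1 ± 4.67 against 72.95 ± 3.94 in DMSO) and Lingo1 rose (72.9 ± 6.67 against 35.9 ± 6.23 in DMSO, SD, n = 3 each). Of 8 partners of nephronectin 3 were tested, of which Itgb1 fell with A485 by 0.30. No other gene of the ALK and LTK list passed the filter (3 listed). Among 11 histone deacetylase genes, 2 rose and 9 did not pass after 1 h of degrader, and 6 rose, 1 fell and 4 did not pass after 1 h of A485. After 1 h of LBH589 Hdac5 was at 948 ± 149.9 normalised reads and Hdac6 at 569.5 ± 66.6, against 387 ± 11.8 and 279 ± 21.9 in DMSO, and Hdac7 was at 8400 ± 383.5 against 14860 ± 255 in DMSO (SD, n = 3 each, no test).

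By their profile over the 16 treated groups of the time course and the A485 series, the genes most like the mean of the 8 were Hadh (Pearson r = 0.95), Arhgef6 (0.94), Sptbn4 (0.92), Amz1 (0.91) and Cep164 (0.91), out of 12489 genes compared. This is a description: the 16 points share the DMSO libraries of their experiment.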

How the data were processed

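PRO-seq was measured in 65 samples of 23 groups. The deposited gene tables hold DESeq2-normalised counts per transcript (25857 transcripts, 15020 symbols), a signal and not raw reads, as the authors deposited it. Bowtie2 2.2.2, SAMtools 1.16.1, featureCounts 2.0.1 and DESeq2 1.46.0 are named in the submitters' processing notes. Whether counting used strand is not given in the sources used here. Values were whole multiples of 1 read within a tolerance of 0.1, and reads were recovered from them. Each experiment was fitted alone with limma 3.58.1 (R 4.3.3) on log2(value + 1) over all its groups, for genes with a mean of at least 10, with Benjamini-Hochberg adjustment and a threshold of 0.05. Fold changes on this scale understate the change of low genes, and a change shared by most genes is removed by the normalisation. edgeR 4.0.16 on the recovered reads, a pseudocount of 5, no filter, a replicate block and left-out libraries were alternatives.

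Of the time course's 21 filled columns, 2 could not be tied to a sample and were left out, as was 1 empty column. The 1 h and 2 h washout columns were tied to their group only. The 5 libraries at 1 h and 2 h of degrader carry an A485 title and a degrader library name, and were used as the library name gives. Members and lists (eicosanoid pathway, ephrins, ALK and LTK, relaxins, CNNM, Islr2 relatives, nephronectin partners, histone deacetylases) and marker lists were chosen with earlier results of these data known. Named genes are the members, their flanking genes, the top 10 of the LBH589 ranking at each time with the genes next below, the 5 most alike in profile, Cbfa2t3, and genes of the lists that were called or changed most, with Ptger4 and Hdac6 added after their values were seen. The limma step was tested on simulated data.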

Additional observations from a re-analysis of the deposited data

Results flagged for a closer look

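Some results of these genes differed between experiments or conditions. Islr2 changed by 1.503 in the time course and by -0.70 in the A485 series with 30 min of degrader, with every library of the first on one side of DMSO and every library of the second on the other. The change of Islr2 in the time course was 0.83 without degrader 30 min replicate 3, a library that stood apart. That in the A485 series did not pass. Npnt changed by 1.04 and -0.72 in the same comparison, and each of its calls was lost without some single libraries. At 1 h Islr2 changed by 0.85 in the time course, in libraries of conflicting labels, and by -0.14 in the A485 series, and neither change passed. These differences between the experiments were not tested. For Ltk the effect of the degrader at 1 h differed between cells with and without A485, with an interaction of -0.94 (limma adjusted p = 0.00296).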

How the results depend on the processing

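Of 1454 changes of single genes recomputed under an alternative, 1371 kept their side of the threshold, 59 lost a call and 24 gained one. Reversals were counted only where the main or the alternative fit was called, and there were 0. A change of sign between fits without a call counts among the 1371. The 128 LBH589 changes kept their sign, and 4 moved by more than the spread between replicates. Scaling by total recovered reads in place of size factors shifted the median of all genes by 0.12 at 1 h of LBH589, against 0.03 at 30 min. Low counts limit all 8 genes. The causes of the shifts below were not tested.

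In the time course, the number of the 8 genes called without the 2 libraries that stood apart was 1 at 15 min (0 with them), 1 at 1 h (0) and 2 at 2 h of degrader (0), 5 for 30 min of washout (3), 2 for 2 h of washout against degrader (1) and 4 for 2 h of washout against DMSO (3). Without the 5 libraries of conflicting labels it was 0 at 30 min of degrader (2 with them) and 1 for 2 h of washout against DMSO (3). Same-numbered libraries did not pair (correlations of -0.14 to 0.20). With the replicate block, 1 gene was called at 30 min of degrader in the time course (2 without it) and 2 for 30 min of washout (3 without it), with Npnt lost in both (limma adjusted p = 0.0531 and 0.0587). The count was 1 for both agents against A485 at 1 h (0 without it; also 1 with a pseudocount of 5), and 5 in the LBH589 washout series (3 without it). No block was possible for 2 h of washout, whose columns carry no number. The same held for A485 at 30 min and 1 h against DMSO, whose libraries share no replicate number. With 1 library left out, the time course gave 0 to 1, 0 to 3, 0 to 1 and 0 to 0 called genes at 15 min, 30 min, 1 h and 2 h of degrader, 0 to 0 for 30 min and 2 h of washout against degrader and 1 to 2 for 2 h of washout against DMSO. The A485 series gave 2 to 2, 1 to 3 and 1 to 3 for the degrader at 15 min, 30 min and 1 h, 4 to 6, 6 to 7 and 6 to 7 for A485 and 1 to 1 for the interaction, and the LBH589 washout series 1 to 4. The planned look at dREG sites near the genes was not run, since the gene tables carry no coordinates and the reference is of another build.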

Other observations

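The 1 library at 1 h of washout in the time course, which entered no comparison, had 128 normalised reads of Npnt, 129 of Insl6, 98.2 of Ltk, 60.5 of Cnnm1, 36.0 of Ptgr1, 35.1 of Cysltr1 and 25.4 of Efna3. Degrader 30 min replicate 3 of the time course had 152 normalised reads of Islr2, 99.2 of Npnt and 175 of Insl6, and the libraries at 30 min of washout had 144 and 114 of Islr2, 109 and 114 of Npnt and 133 and 123 of Insl6.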
